A study of Gallus gallus with 4 samples.

Results

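The genes described here are the very long genes of the chicken genome, those whose exons, from the first to the last, span 400 kb or more in the deposited gene models. The span of each gene was taken as its largest exon end minus its smallest exon start, and every gene with a span of at least 400000 bp outside chromosome 16 was kept, whatever its counts. The rule found 46 of 17108 genes, or 0.269% of the table, and it used no measured level. The files do not pair their identifiers with gene names, and a RefSeq name table of the later GRCg7b assembly matched 0 of all 17108 identifiers. The genes are therefore given by chromosome, start and end on the galGal4 build, and their functions cannot be described.

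A very long gene is mostly intron. RNA polymerase II has to cross the whole span before a full transcript exists, which takes hours in the longest genes. The mature mRNA that is sequenced is only a small part of that length. Many of the longest vertebrate genes encode adhesion molecules, ion channels, synaptic proteins and large cytoskeletal proteins, and they are often used in neurons. The immediate early genes that ERK signalling induces within minutes, such as FOS and EGR1, are by contrast short genes.

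The study sequenced RNA of GFP+ cells from the trunk neural tube of chicken embryos, the developing spinal cord. The cells were sorted by FACS 18 h after in ovo electroporation at around stage HH11. In the MEK1ca group, embryos received 1 µg/µl of a pCIG-MEK1ca plasmid, which encodes a constitutively active MEK1 (the kinase that activates ERK), together with 1 µg/µl of empty pCIG. In the pCIG group they received empty pCIG at 2 µg/µl, so that the control cells also carried plasmid and GFP. All embryos had 5 bilateral pulses of 50 ms at 25 V, and several were pooled for each library according to the methods of the study. Expression of the plasmid is transient, and cells other than those labelled by GFP are not represented.

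There were 2 libraries in each group, with 63637195 and 76997561 counts in MEK1ca and 77004159 and 79064166 in pCIG. Both pCIG libraries carry the label of a re-analysis of earlier work, and a sequencing run that follows the groups cannot be told apart from the plasmid. MEK1ca replicate 2 stood apart in 1 respect. Among all genes with 1 to 99 counts, 98.5% of its counts were even numbers, against 51.5% in MEK1ca replicate 1, 56.1% in pCIG replicate 1 and 52.8% in pCIG replicate 2. Without gene names, neither the level of the MEK1 transcript nor the markers of neural tube, mesoderm or blood cells could be examined. As these are bulk samples, fewer cells of a type and less RNA per cell cannot be told apart in any value below.

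The very long genes had a median span of 442483 bp, with quartiles of 421107 and 553850 bp, and the longest covered 802393 bp. They lay on 13 chromosomes, with 11 on chromosome 1, 8 on chromosome 2, 6 on chromosome 3 and 4 each on chromosome 4 and the sex chromosome Z. The gene models held between 4 and 92 exons, with a median of 23.5, against a median of 7 for genes spanning less than 100 kb. Their summed exon length had a median of 4965 bases, against 1729 bases for the shorter genes. Exons filled a median of 1.04% of the span in very long genes and 24.1% in the shorter genes. The single largest intron had a median of 138400 bp and reached 198746 bp, and it measured at least 100000 bp in 34 of the 46. It was among the first 4 introns in 32 of them, being the first intron in 11 and the second in 11. The largest intron thus lay near the 5′ end more often than not, and the map of the 11 genes that changed shows the same layout.

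**Figure D1:**
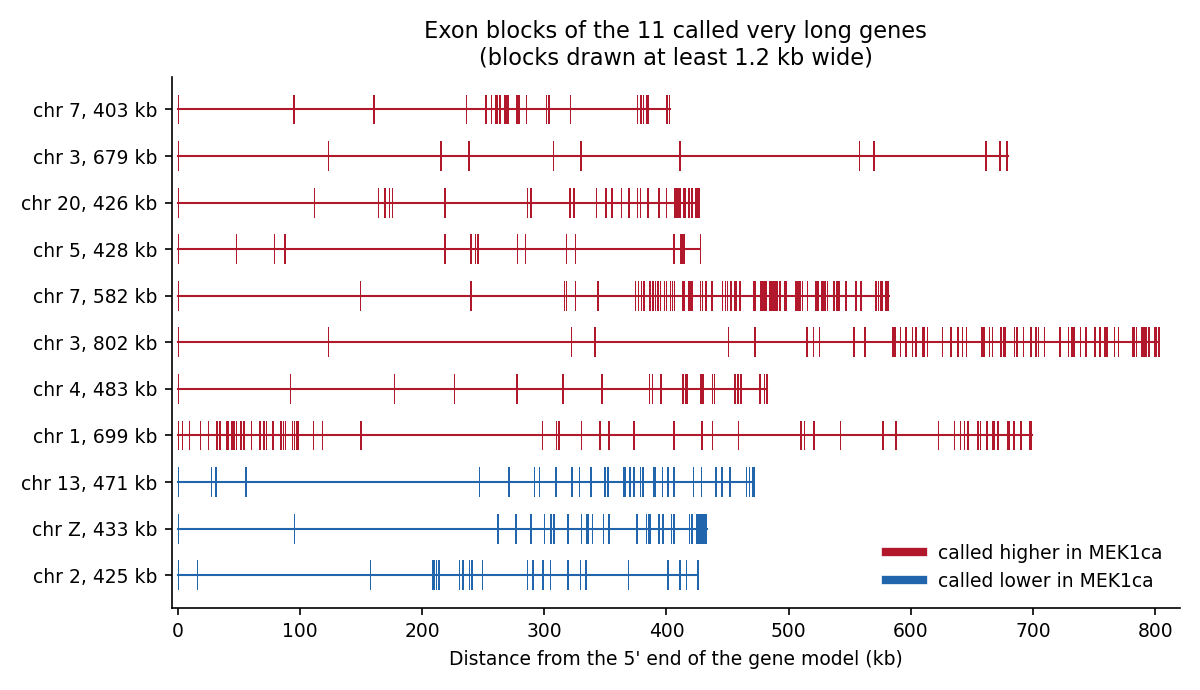
Gene models of the 11 very long genes called different between MEK1ca and pCIG, drawn by distance in kb from their 5′ end, with vertical bars for exon blocks (at least 1.2 kb wide in the drawing) and lines for introns. Exons crowd toward the 3′ end in most models, and the chromosome 1 gene of 699 kb has a second crowd at its 5′ end.

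The share of very long genes detected was near that of other genes over 30 kb, and the small differences rest on very few genes. Their median level per length was lower than in the classes between 10 and 400 kb. At least 1 count was present in every library for 43 of the 46 genes (93.5%), and 37 (80.4%) had a mean of at least 1 CPM (counts scaled to library size, here with TMM factors). The genes with a library at 0 counts include a pair of models that overlap on the same strand of chromosome Z. The share with at least 1 count in every library was 64.3% for genes under 10 kb, 90.1% at 10 to 30 kb, 95.5% at 30 to 100 kb, 96.5% at 100 to 200 kb and 97.7% at 200 to 400 kb. In the same order, a mean of at least 1 CPM was reached by 48.05, 79.56, 86, 87.74 and 87.45% of genes. The median CPM was 0.737 under 10 kb, 28.7 at 10 to 30 kb, 32.5 at 30 to 100 kb, 23.9 at 100 to 200 kb, 13.3 at 200 to 400 kb and 7.99 at 400 kb or more. Per kilobase of exon, the mean RPKM over the 4 libraries had a median of 1.42 in very long genes, against 0.895 in genes under 10 kb. From 10 to 30 kb upward, the median RPKM was lower in each longer class, with 11.6, 10.1, 6.82, 3.38 and then 1.42. These levels are descriptions of the gene classes, whose members differ in exon length as well as in span.

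**Figure D2:**
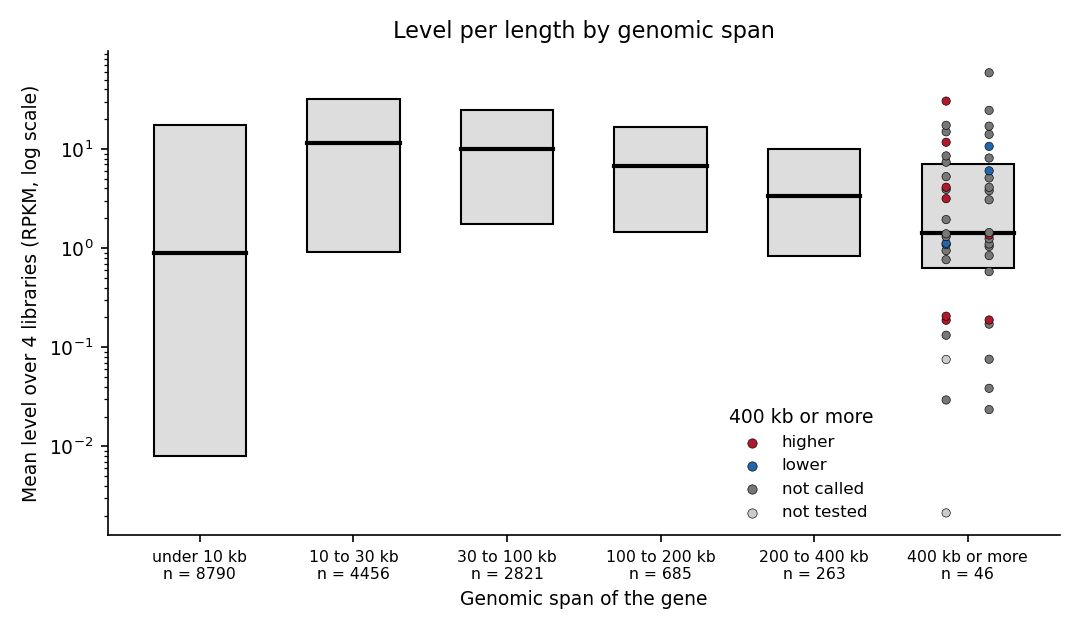
Mean RPKM over the 4 libraries (log scale) for genes grouped by genomic span, with boxes from the first to the third quartile and a line at the median. Points show the very long genes with a level above 0, coloured by call in MEK1ca versus pCIG. The median was 1.42 RPKM at 400 kb or more, against 11.6 RPKM at 10 to 30 kb.

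Among themselves the very long genes covered a wide range of levels. A mean of at least 5 RPKM was found for 15 of them, 1 to 5 RPKM for 16, 0.1 to 1 RPKM for 9 and less than 0.1 RPKM for 6. Span itself ordered them little, with a Spearman correlation of 0.03 between span and mean RPKM over the 46 genes. The most abundant was a gene of 621 kb on chromosome 2 (8785742 to 9406733, 23 exons). It had 42.4 and 64.9 RPKM in MEK1ca, against 61.3 and 66.4 RPKM in pCIG. MEK1ca replicate 1 lay below the others and MEK1ca replicate 2 within the pCIG range, so the groups overlapped. Its log2 fold change was −0.25 ± 0.25 (SE, n = 2 libraries each), with an edgeR adjusted p of 0.596. Without MEK1ca replicate 2 the same gene was at −0.59, with an edgeR adjusted p of 7.71e-05, and without MEK1ca replicate 1 it was at 0.03 (0.922), so that 1 library decided its call and its sign.

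The second most abundant was a gene of 483 kb on chromosome 4, which is described with the genes that rose. The next was a gene of 503 kb on chromosome 1 (191230962 to 191733590). It had 24.6 and 20.2 RPKM in MEK1ca, against 27.7 and 25.6 RPKM in pCIG, with both MEK1ca libraries below both pCIG libraries. Its log2 fold change of −0.25 ± 0.10 did not pass the test (edgeR adjusted p = 0.131), though it did without MEK1ca replicate 1 (0.00603). A gene of 430 kb on chromosome 2 (13068736 to 13498548) had 19.2 and 16.9 RPKM in MEK1ca and 16.4 and 16.9 RPKM in pCIG, and the groups overlapped. A gene of 405 kb on chromosome 9 (2487369 to 2891929) had 20.9 and 17.0 RPKM in MEK1ca and 15.8 and 14.3 RPKM in pCIG. Its groups did not overlap, but the difference of 0.34 ± 0.12 on the log2 scale had an edgeR adjusted p of 0.101, and 0.0200 without MEK1ca replicate 2. A gene of 460 kb on chromosome 1 (1361642 to 1822074) had 14.1 and 14.1 RPKM in MEK1ca and 14.8 and 16.7 RPKM in pCIG, a log2 difference of −0.16 with an edgeR adjusted p of 0.254. Of the 6 most abundant very long genes, only the 483 kb gene was called.

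Together the 46 genes held a small part of each library. Their share of all counts was 0.164% (95% exact binomial interval 0.163 to 0.165%) and 0.169% (0.168 to 0.170%) in MEK1ca, against 0.160% (0.159 to 0.161%) and 0.161% (0.160 to 0.162%) in pCIG. The intervals treat every count as independent and leave out the spread between libraries. PCR copies are not independent molecules, so the intervals can be too narrow even for counting error. Both MEK1ca shares lay above both pCIG shares, the ratio of the means was 1.04, and the two-sided exact permutation p was 0.333, the smallest that 2 against 2 libraries can give. The 6 genes of highest RPKM made up 51.8 and 56.7% of these counts in MEK1ca, and 57.7 and 58.7% in pCIG. Without the 2 genes of highest mean CPM, the share of all counts was 0.118 and 0.112% in MEK1ca, against 0.0975 and 0.0980% in pCIG. The median RPKM of the 46 genes was 1.70 and 1.70 in MEK1ca, against 1.33 and 1.26 in pCIG.

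The comparison of MEK1ca with pCIG asks which transcripts change when MEK1, and through it ERK, is constitutively active. Of the 44 very long genes with enough counts to be tested, 8 (18.2%) were higher in MEK1ca and 3 (6.82%) were lower, at an edgeR quasi-likelihood adjusted p under 0.05. Among all 13024 genes tested, 8.18% were called higher and 5.75% lower. At least 2-fold higher levels were found for 6 of the 44 (13.6%), against 3.57% of all genes tested. The lowest log2 fold change of the 44 was −0.85, short of a 2-fold decrease. Such decreases were rare everywhere, with 142 of the 13024 genes called at least 2-fold lower, so their absence does not mark out the very long genes. The median log2 fold change of the 44 was 0.11, against −0.0049 over all genes tested, with 26 positive and 18 negative values. By mean level, the median of the very long genes was 0.53 under 2 CPM and 0.11 at 2 to 10 CPM. It was −0.0052 at 10 to 40 CPM and −0.035 at 40 CPM or more, so the positive median came from the scarcer genes. Both MEK1ca libraries lay above both pCIG libraries in 16 of the 44 (36.4%, against 29.4% of all genes tested) and below them in 12 (27.3%, against 29.5%). Shares of 44 genes move by more than 2 percentage points with each gene, and no test of the list as a whole was made.

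**Figure D3:**
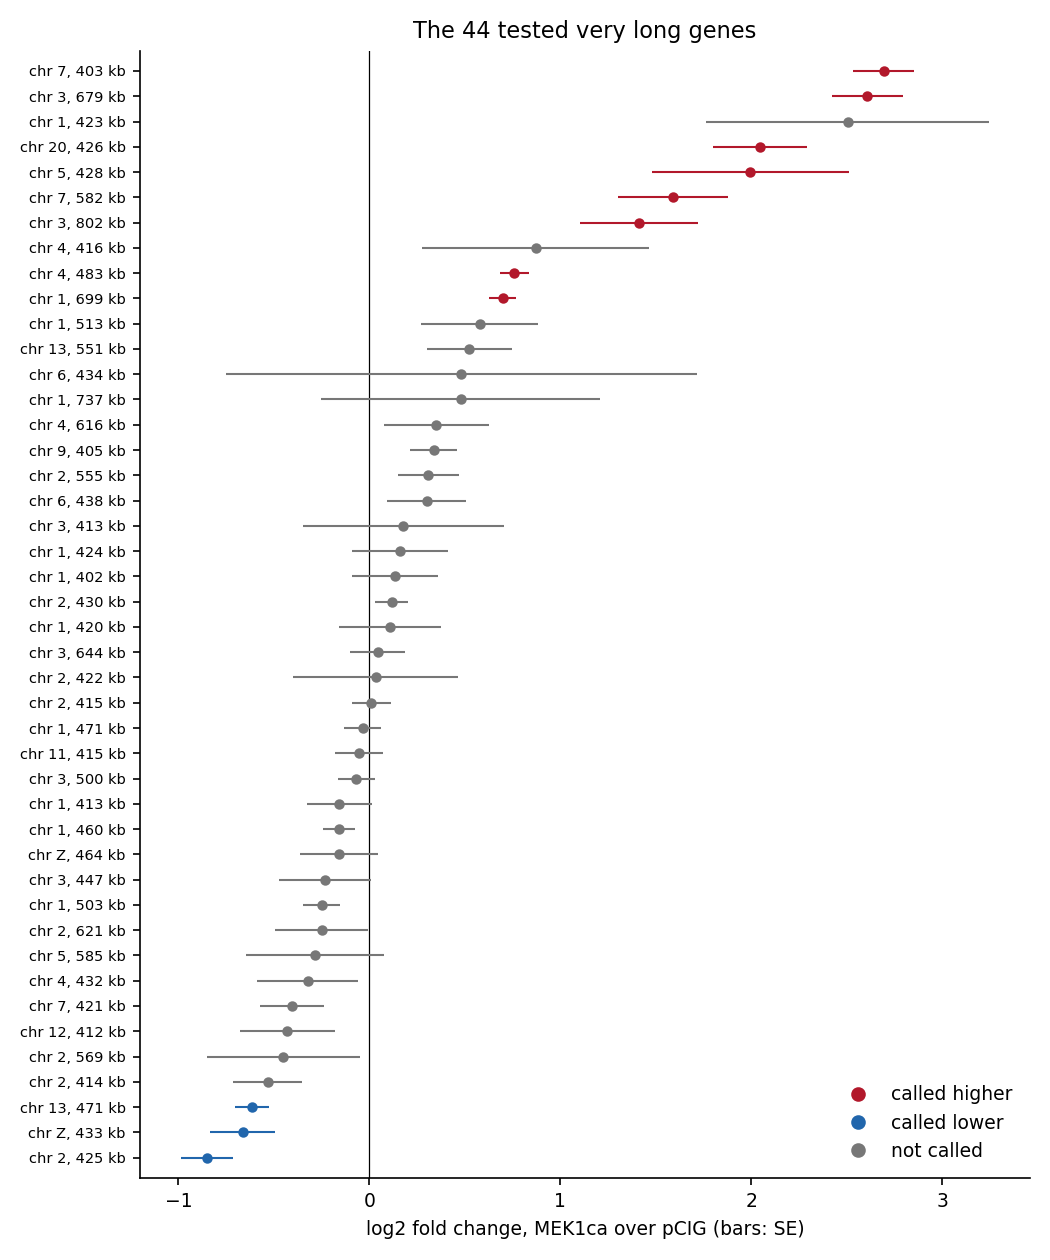
Log2 fold change of MEK1ca over pCIG with its standard error for each of the 44 tested very long genes, ordered by size and coloured by the edgeR call. Values run between −0.85 and 2.69, with 8 genes called higher and 3 called lower.

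The 2 strongest increases were those of ENSGALG00000003126 and ENSGALG00000011562. ENSGALG00000003126, a gene of 403 kb with 27 exons on the minus strand of chromosome 7 (3031382 to 3433912), had 1481 and 1724 counts in MEK1ca, against 267 and 293 in pCIG. Per length this was 5.62 and 5.32 RPKM in MEK1ca, against 0.811 and 0.880 RPKM in pCIG. The replicates of each group lay close together and the groups were far apart. The difference was 6.47-fold, a log2 fold change of 2.69 ± 0.16 (SE; edgeR adjusted p = 1.06e-05). ENSGALG00000011562, a gene of 679 kb with only 12 exons on chromosome 3 (43765827 to 44445298), had 1601 and 1548 counts in MEK1ca, against 267 and 322 in pCIG. It was 6.10-fold higher (2.61 ± 0.19 on the log2 scale, edgeR adjusted p = 3.19e-05), again with no overlap. In this gene the exons made up 0.476% of the span, and the largest intron, the seventh, measured 146656 bp.

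A gene of 426 kb with 35 exons on chromosome 20 (3189962 to 3615919) rose 4.14-fold. It had 12.2 and 8.96 CPM in MEK1ca, against 2.94 and 2.16 CPM in pCIG, a log2 fold change of 2.05 ± 0.25 with an edgeR adjusted p of 0.000692. The gap between the groups was wider than that between replicates.

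Another 3 called genes were scarce, with mean levels under 0.3 RPKM, and their calls depended on single libraries. The gene of 428 kb on chromosome 5 (38796212 to 39223738, 17 exons) had 119 and 70 counts in MEK1ca, against 33 and 22 in pCIG. It was 3.99-fold higher (edgeR adjusted p = 0.0321), but the adjusted p was 0.257 without MEK1ca replicate 1, 0.101 without pCIG replicate 1 and 0.2 without pCIG replicate 2. The gene of 582 kb on chromosome 7 (31350097 to 31932431), which had the most exons of all 46 with 92, had 312 and 408 counts in MEK1ca, against 164 and 104 in pCIG. Its 3.01-fold difference had an edgeR adjusted p of 0.00645, and of 0.0626 without pCIG replicate 2. The longest gene of the table, 802 kb with 64 exons on chromosome 3 (88949756 to 89752149), had 181 and 200 counts in MEK1ca, against 88 and 74 in pCIG. It was 2.66-fold higher (1.41 ± 0.31 on the log2 scale, edgeR adjusted p = 0.0160), and the adjusted p was 0.0654 without pCIG replicate 1 and 0.116 without pCIG replicate 2. In each of the 3 genes both MEK1ca libraries were above both pCIG libraries. This was also a condition for describing a called gene singly, so it adds no support to these calls.

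The remaining increases were of smaller size in abundant genes. The gene of 483 kb with 24 exons on chromosome 4 (47308221 to 47790789) had 187 and 196 CPM in MEK1ca, against 107 and 119 CPM in pCIG. Its log2 fold change was 0.76 ± 0.08, or 1.69-fold (edgeR adjusted p = 0.000253). The gene of 699 kb with 65 exons on chromosome 1 (114233667 to 114932830) had 175 and 166 CPM in MEK1ca, against 102 and 108 CPM in pCIG. Its log2 fold change was 0.70 ± 0.07, or 1.62-fold (edgeR adjusted p = 0.000300). Both genes had tight replicates, so that a change under 2-fold stood well outside their spread.

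**Figure D4:**
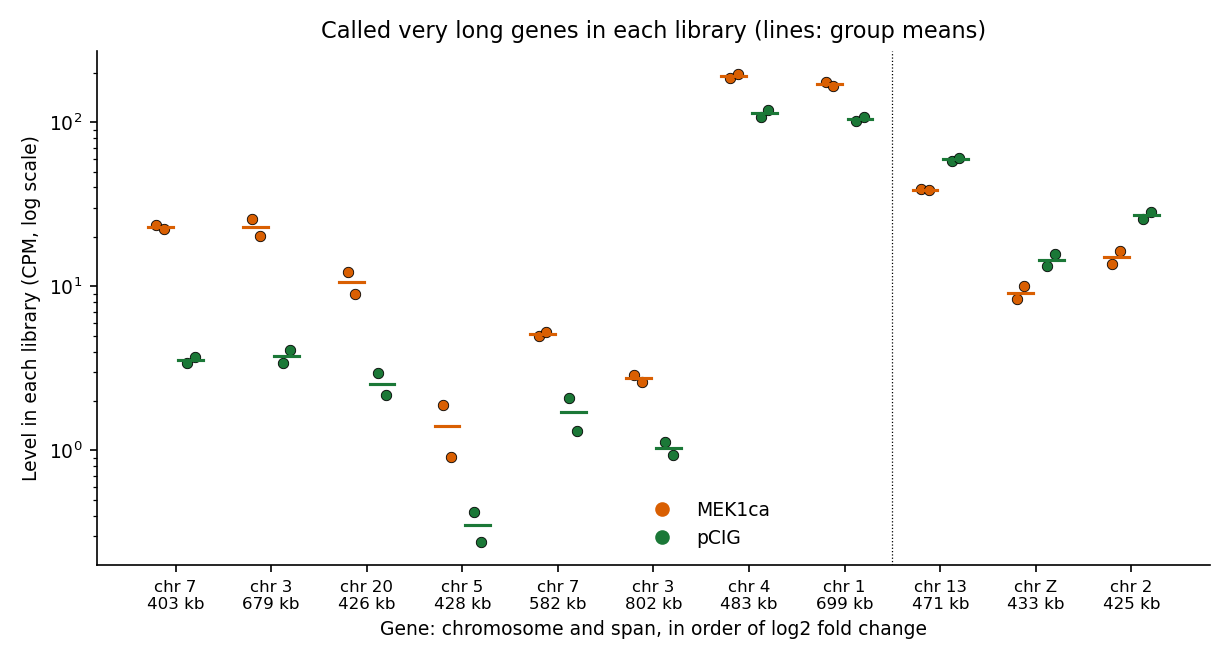
CPM (log scale) of the 11 called very long genes in each MEK1ca and pCIG library, with short lines at the group means and a dotted line between the genes called higher (left) and lower (right). In every gene the MEK1ca and pCIG libraries do not overlap, which was also a condition for describing called genes singly. For ENSGALG00000003126 on chromosome 7 the libraries sit at 23.7 and 22.4 CPM in MEK1ca and at 3.41 and 3.70 CPM in pCIG.

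Decreases were fewer and smaller, as they also were over all genes tested. There 1065 genes were called higher and 749 lower, with median log2 fold changes of 0.85 and −0.59. ENSGALG00000010854, a gene of 425 kb with 27 exons on chromosome 2 (29228468 to 29653602), had 852 and 1263 counts in MEK1ca, against 2023 and 2238 in pCIG. Its log2 fold change was −0.85 ± 0.14 (edgeR adjusted p = 0.00336), a level 1.80-fold lower in MEK1ca, and the adjusted p was 0.0576 without pCIG replicate 2. ENSGALG00000020554, a gene of 433 kb with 30 exons on chromosome Z (32976702 to 33409919), had 522 and 768 counts in MEK1ca, against 1038 and 1247 in pCIG. It was 1.58-fold lower with an edgeR adjusted p of 0.0321, and it was not called without MEK1ca replicate 1 (0.110), pCIG replicate 1 (0.0790) or pCIG replicate 2 (0.232). The gene of 471 kb with 36 exons on chromosome 13 (3574865 to 4046215) had 39.1 and 38.6 CPM in MEK1ca, against 58.3 and 60.6 CPM in pCIG. This 1.53-fold decrease (−0.61 ± 0.09 on the log2 scale, edgeR adjusted p = 0.00175) had the closest replicates of the 3. In all 3 genes both MEK1ca libraries were below both pCIG libraries, which was again a condition for describing them singly.

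Since ENSGALG00000020554 lies on Z, the sex chromosomes were examined. The 16 genes of the female-specific chromosome W summed to 125 and 143 CPM in MEK1ca, against 84.9 and 106 CPM in pCIG, and the 639 tested Z genes had a median log2 fold change of −0.07. The part of this difference in the decrease of ENSGALG00000020554 was not tested. Without the genes of Z and W, 8 very long genes were called higher and 2 lower.

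The calls were not equally stable. Of the 11 called genes, 6 passed the test in each of the 14 alternative fits as well, namely ENSGALG00000003126, ENSGALG00000011562, the 426 kb gene of chromosome 20, the 483 kb gene of chromosome 4 and the 699 kb gene of chromosome 1, which were higher, and the 471 kb gene of chromosome 13, which was lower. When 1 library was left out, the other being assumed to vary like the opposite group, 9 of the 11 passed without MEK1ca replicate 1, 11 without MEK1ca replicate 2, 8 without pCIG replicate 1 and 6 without pCIG replicate 2.

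For the other 33 tested genes a difference was not shown. Both MEK1ca libraries were above both pCIG libraries in 8 of these, below them in 9, and the groups overlapped in 16. Over all genes tested, called or not, 29.4% lay above and 29.5% below, so these counts do not mark out the 33 genes. An absolute log2 fold change under 0.2 was seen in 14, where the median over all genes tested was 0.201. An unadjusted edgeR p under 0.05 was seen in 5, with no share over all genes to set beside it. The largest change among them was that of a gene of 423 kb on chromosome 1 (182715565 to 183138508), which had 31 and 30 counts in MEK1ca, against 9 and 3 in pCIG. Its log2 fold change of 2.51 ± 0.74 had an edgeR adjusted p of 0.0530, and 0.0482 when the counts of MEK1ca replicate 2 were halved, so that it lies at the threshold. Precision at such counts was low, with standard errors up to 1.23 among the 33 genes.

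The 3 abundant genes given next were chosen because the same test gave them a high unadjusted p. Their small differences follow from that choice and cannot show what these libraries resolve at high counts. A gene of 500 kb on chromosome 3 (4845692 to 5345923) had 4084 and 4492 counts in MEK1ca and 4733 and 5463 in pCIG, a log2 difference of −0.07 ± 0.10. A gene of 471 kb on chromosome 1 (172293589 to 172764556) had 4095 and 4293 counts in MEK1ca and 4998 and 4768 in pCIG, a log2 difference of −0.04 ± 0.10. A gene of 415 kb on chromosome 2 (127651883 to 128067171) had 3578 and 3772 counts in MEK1ca and 4316 and 3968 in pCIG, a log2 difference of 0.01 ± 0.10. After scaling for depth, the groups overlapped in each of the 3. Precision was not the same in all abundant genes. The standard error was 0.25 for the 621 kb gene of chromosome 2 and 0.22 for the 551 kb gene of chromosome 13, which had more counts.

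Some very long genes varied as much between replicates as between groups. A gene of 585 kb on chromosome 5 (34375148 to 34959900) had 2.69 and 4.70 RPKM in MEK1ca and 3.58 and 5.46 RPKM in pCIG. In both groups replicate 1 was the low library and replicate 2 the high one, so that MEK1ca lay below pCIG within each replicate number. Its log2 difference of −0.29 ± 0.36, with no replicate block, had an edgeR adjusted p of 0.678. Over the 44 tested genes, the absolute log2 ratio between replicates had a median of 0.27 in MEK1ca and 0.18 in pCIG. In genes under 100 kb, medians were taken within classes of mean log2 CPM. Their average, weighted to the levels of the 44 genes, was 0.23 in MEK1ca and 0.23 in pCIG.

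Of the 5 longest genes, 3 were called higher, as described for chromosome 3 (802 kb and 679 kb) and chromosome 1 (699 kb). Over all genes tested, 8.18% were called higher. So few genes cannot link length to the increases. Over the 44 tested genes, span and log2 fold change had a Spearman correlation of only 0.12. The second longest, 737 kb on chromosome 1 (188459667 to 189196267), had 9 and 28 counts in MEK1ca and 10 and 19 in pCIG. Its libraries overlapped and nothing can be read from it at this depth. The third longest, 726 kb on chromosome Z (73377654 to 74103304), had 0 and 2 counts in MEK1ca and 0 and 0 in pCIG, and it was not tested. A count of 0 allows up to 3 counts, or 0.0479 CPM in MEK1ca replicate 1, 0.0384 CPM in pCIG replicate 1 and 0.0379 CPM in pCIG replicate 2. A second untested gene, of 452 kb (73638540 to 74090426), lies within the span of the 726 kb model on the same strand, with 0 and 28 counts in MEK1ca and 0 and 2 in pCIG.

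Very long genes were then set against shorter genes of like expression, because calls depend on counts. Tested genes under 100 kb were grouped in strata of mean log2 CPM of width 1 and weighted to the distribution of the 44 very long genes. Of the very long genes 18.2% were called higher, against 7.69% of the weighted shorter genes, and 6.82% were called lower, against 5.30%. At least 2-fold higher levels were found for 13.6% of the very long genes and 4.39% of the shorter genes of like expression. When the strata were built on RPKM, 6.80% of the shorter genes were called higher and 4.48% lower. Strata of CPM and summed exon length together placed 39 of the 44, while the values of the very long genes still cover all 44. With these strata the shorter genes were called higher in 10.3% and lower in 6.36%. At least 2-fold higher levels were then found for 5.76% of the shorter genes, while strata of RPKM left the 4.39% nearly unchanged. Without weighting, this share was 6.13% of tested genes at 100 to 200 kb and 9.38% at 200 to 400 kb. The 13.6% of the very long genes rested on 6 genes. The median absolute log2 fold change was 0.34 in very long genes. In the shorter genes, weighted averages of stratum medians were 0.29 with CPM, 0.32 with CPM and exon length and 0.36 with RPKM. These averages, the second weighted to 39 genes, are not the same measure as a median over 44 genes. They lay on both sides of 0.34, so which class changed more was not settled. As 8 and 3 genes carry the shares of the very long class, these values describe the list and were not tested.

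The calls were spread over the range of levels. Below 2 CPM 2 of 10 very long genes were higher and the other 8 were not called, where 4.29% of the shorter genes were higher and 1.03% lower. At 2 to 10 CPM 2 of 13 were higher and the other 11 were not called, against 8.61% and 5.53% of the shorter genes. At 10 to 40 CPM 2 of 10 were higher and 2 lower, against 8.01% and 7.48%. At 40 CPM or more 2 of 11 were higher and 1 lower, against 8.75% and 6.63%. Increases were thus found at every level, while the 3 decreases were all found at 10 CPM or more. The lower levels held 10 and 13 very long genes, and 1.03% and 5.53% of the shorter genes were lower there. The absence of decreases below 10 CPM therefore does not mark out the very long genes.

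Along the whole range of gene spans, the share of tested genes called higher was 6.13% under 10 kb, 7.41% at 10 to 30 kb, 10.96% at 30 to 100 kb, 14.9% at 100 to 200 kb, 14.5% at 200 to 400 kb and 18.2% at 400 kb or more. The share called lower was 4.46, 5.42, 7.71, 9.95, 7.81 and 6.82% in the same classes. The median absolute log2 fold change was 0.21 under 10 kb, 0.17 at 10 to 30 kb, 0.21 at 30 to 100 kb, 0.27 at 100 to 200 kb, 0.32 at 200 to 400 kb and 0.34 at 400 kb or more. Exon length and level also differed between these classes, and their part in the order was not tested. Within the very long genes, span and log2 fold change had a Pearson correlation of 0.17 (on log2 span) and a Spearman correlation of 0.12, over 44 genes measured in the same 4 libraries. For mean RPKM the values were −0.29 and −0.25, for summed exon length −0.0020 and −0.08, and for the number of exons 0.02 and −0.05, so that no property of the gene model ordered the changes closely.

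**Figure D5:**
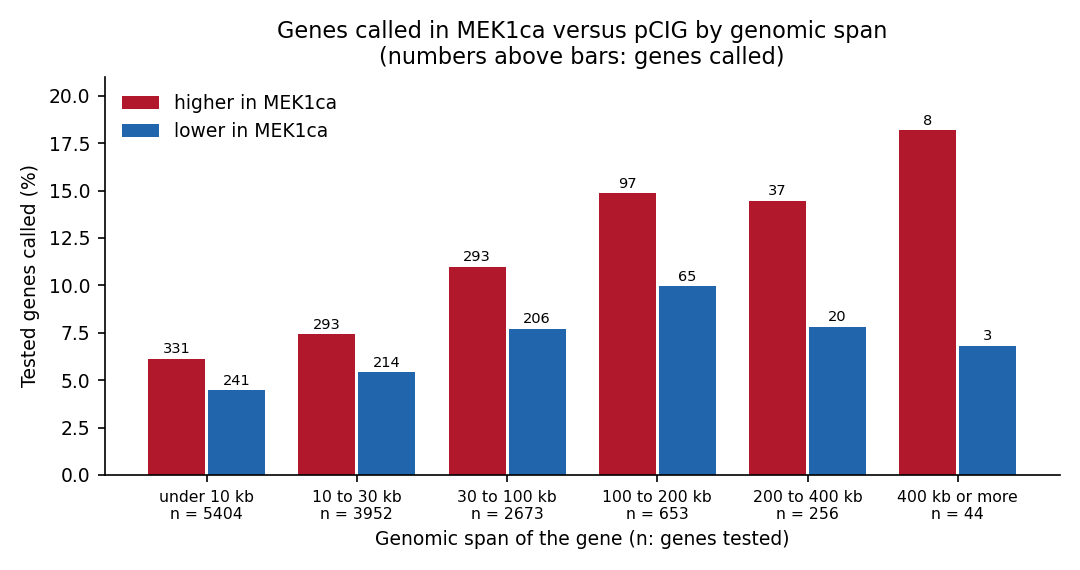
Percent of tested genes called higher or lower in MEK1ca versus pCIG, by genomic span, with the number of called genes above each bar. The share called higher is 18.2% (8 of 44 genes) at 400 kb or more, against 6.13% under 10 kb.

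The limit of 400 kb is a round one. Just inside it lay a gene of 401783 bp on chromosome 1 with a log2 fold change of 0.14, ENSGALG00000003126 with 402530 bp and 2.69, and the 404560 bp gene of chromosome 9 with 0.34. Just outside it lay a gene of 392695 bp on chromosome 3 (58029862 to 58422557) with 0.91, one of 390795 bp on chromosome 6 with 0.02 and one of 386225 bp on chromosome 4 with −0.18. The first of these had 10946 and 10999 counts in MEK1ca, against 6809 and 6446 in pCIG.

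Of the 16 genes flanking the 8 increased genes, 13 were tested, 3 were called higher and the other 10 were not called. Of the 56 tested genes flanking very long genes that were not called, 4 were higher and 2 lower, and over all genes tested 8.18% were higher. The numbers are small and the difference was not tested. Of the 3 increased neighbours, 2 flank the 483 kb gene of chromosome 4, with log2 fold changes of 0.79 ± 0.19 and 2.88 ± 0.61 at distances of 882644 and 708349 bp. Mean levels were 13.1 CPM in MEK1ca and 7.55 in pCIG for the first. The second was scarce, with 0.996 and 0.134 CPM. The other increased neighbour flanks the 428 kb gene of chromosome 5, with a log2 fold change of 3.66 ± 0.63 at 272095 bp. It was also scarce, with 0.986 CPM in MEK1ca and 0.0761 CPM in pCIG. Of the 6 genes flanking the 3 decreased genes, 4 were tested, 1 was called higher and the other 3 were not called. The median distance from a very long gene to its flanking genes was 72460 bp.

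On chromosome 13 a pair of very long genes lies 141198 bp apart on opposite strands. The 471 kb gene fell by 0.61 on the log2 scale, while its 551 kb neighbour (4187413 to 4738485) had 8848 and 7852 counts in MEK1ca, against 7519 and 5785 in pCIG. The neighbour's log2 fold change of 0.52 ± 0.22 did not pass the test (edgeR adjusted p = 0.226), but it passed with DESeq2 on all 4 libraries (adjusted p = 0.0129), with the replicate block (edgeR, 5.47e-05) and without MEK1ca replicate 2 (edgeR, 0.0113). Near the longest gene, which rose by 1.41 on the log2 scale, a gene of 413 kb at a distance of 872071 bp had a log2 fold change of 0.18.

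Other genes lay inside the spans of many of these genes. Within the spans of 19 of the 46 there were 25 nested models (1 of them counted in 2 overlapping hosts), 18 on the same and 7 on the opposite strand, of which 17 were single exons under 200 bases. In all libraries 10 of them had 0 counts, and the 2 that were tested had edgeR adjusted p-values of 0.626 and 0.378. Exon bases shared with another gene were found in 2 of the 46 genes and made up at most 0.545% of the exon length. Whether counting used strand is not stated in the sources used here, and in both of these genes the shared bases belonged to a gene on the same strand.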

How the data were processed

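GFP-positive neural tube cells were measured by RNA-seq in 2 MEK1ca and 2 pCIG libraries. The authors aligned reads to galGal4 and deposited whole-number counts per gene with exon coordinates and summed exon length. The submitters' processing notes name Subread, featureCounts and DESeq. Versions and strand setting are not given in the sources used here. The authors' own comparison table (mean count, fold change, error, statistic and p-values) was not used.

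Spans were computed from the exon coordinates. The 13024 genes kept by filterByExpr were fitted in edgeR 4.0.16 (R 4.3.3) with TMM scaling, a robust glmQLFit and a two-sided glmQLFTest on group alone. Benjamini-Hochberg adjustment ran over all of these genes, and an adjusted p under 0.05 was called. The F statistic of each gene gave the standard error of its log2 fold change. CPM used TMM-scaled library sizes, and RPKM is CPM per kilobase of summed exon length.

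The members and lists were chosen with earlier results of these data known. Described singly were the called genes whose libraries do not overlap, the 6 of highest mean RPKM, the 5 longest, the 3 on each side of the span limit and the 3 of most counts with an unadjusted p over 0.5. Genes described beyond that rule (the 585 kb gene of chromosome 5, the 423 kb gene of chromosome 1, the 551 kb gene of chromosome 13 and the untested and neighbouring genes) were chosen after their values were seen. Marker and pathway lists and the check of the MEK1 transcript need gene names and were not run. Alternatives were other scalings, filters, thresholds and span limits, DESeq2 1.42.0, limma-voom 3.58.1, a replicate block, leaving out each library, halving the counts of MEK1ca replicate 2 and leaving out Z and W. Replicates are separate libraries from pooled embryos, so the tests measure how much such pools vary.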

Additional observations from a re-analysis of the deposited data

How the results depend on the processing

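Some alternatives changed little: limma-voom, DESeq2, RLE factors, scaling by totals, no filter, halved counts of MEK1ca replicate 2 and omission of Z and W. Under each, the numbers of very long genes called, 8 higher and 3 lower, stayed within 1.5 times of these values. The median log2 fold change of 0.11 moved by less than 0.049. That limit is the replicate SD of the median log2 level of the very long genes, not the SD of a fold change. At an adjusted p under 0.01, 6 were higher and 2 lower. A stricter filter left 38 genes and a median of 0.0193. Leaving out 1 library gave between 5 and 11 genes higher, between 1 and 6 lower and a median between 0.0242 and 0.155. The fewest calls (5 higher, 1 lower) came without pCIG replicate 2, the most (11 higher, 6 lower) without MEK1ca replicate 2, and the lowest median without MEK1ca replicate 1. The cause was not tested. A span limit of 300 kb gave 17 higher and 8 lower of 115 tested with a median of 0.0175. One of 600 kb gave 3 higher and 0 lower of 7 with a median of 0.479. The number lower was also 0 by edgeR at an unadjusted p under 0.05, by DESeq2 and by limma-voom. Over all genes tested 8.18% were called higher and 5.75% lower, so 0 of 7 does not mark out the longest genes. Their 3 increases rest on 7 genes and were not tested as a group. None of the 46 models had an intron of 200 kb or more, so that leaving such models out changed nothing. The share detected was 80.4% when a mean of at least 1 CPM was required. It was then 86% at 30 to 100 kb, 87.74% at 100 to 200 kb and 87.45% at 200 to 400 kb. The ratio of library shares lay between 1.02 and 1.05 when a library was left out, an alternative chosen after seeing the data.

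Replicate numbers are shared between the groups, and the labels do not say whether equal numbers were processed together. The deviations of replicate 1 from its group mean had a correlation of 0.144 between MEK1ca and pCIG across genes. With 2 pairs this value cannot decide whether the replicates are paired. With the replicate block, 11 very long genes were higher and 6 lower, among them all 11 called without it. For the block and the other alternative fits and thresholds, the share called over all genes was not set beside these counts. A change in the very long genes thus cannot be told apart from a change over all genes. Over the 22 genes described singly, 291 alternative values were computed. Of these 263 kept their direction and side of the threshold, 14 kept the direction but no longer passed, 5 newly passed and 9 turned round. The 9 belong to 6 genes that were not called. Leaving out 1 library gave log2 fold changes between −0.591 and 0.0252 for the 621 kb gene of chromosome 2, −0.352 and 0.998 for the 737 kb gene of chromosome 1, −0.0246 and 0.282 for the 402 kb gene of chromosome 1, −0.168 and 0.0296 for the 500 kb gene of chromosome 3, −0.154 and 0.0763 for the 471 kb gene of chromosome 1, and −0.104 and 0.119 for the 415 kb gene of chromosome 2. Scaling by library totals put the last at −0.0143. The cause of these changes was not tested. Depth limits the genes under 2 CPM, whose standard errors had a median of 0.52 on the log2 scale.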

Other observations

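The even counts of MEK1ca replicate 2 were also seen in the very long genes. Of those with 1 to 99 counts, 10 of 10 had an even count in MEK1ca replicate 2 and 2 of 7 in MEK1ca replicate 1, against 4 of 8 in pCIG replicate 1 and 6 of 10 in pCIG replicate 2.

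Within the 434 kb gene of chromosome 6 lies a gene of 3 exons on the opposite strand (6249644 to 6333333). The nested gene had 57 and 230 counts in MEK1ca, against 229 and 322 in pCIG, while its host had 11 and 6 counts in MEK1ca, against 0 and 14 in pCIG. In each library the nested gene thus held more counts than the gene around it.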
